A study of Mus musculus with 2 samples.

Results

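The genes that encode the proteins of the cytoplasmic ribosome were followed in B cells sorted from the mouse colon, at day 0 and at day 14. Gene symbols beginning Rpl or Rps and followed by a digit, together with Rplp0, Rplp1, Rplp2 and Rpsa, were taken. Of 31053 genes in the feature list, 105 symbols matched, and 96 of them held at least 50 unique molecular identifiers (UMIs, each standing for a captured transcript) over both libraries. The 96 comprised 46 genes of the large subunit, 31 of the small subunit, 5 paralogs or retrogenes (Rps27rt, Rps27l, Rpl22l1, Rpl7l1, Rpl36al), 7 named pseudogenes, and 7 genes whose symbols match although their products are kinases or a binding protein (such as the S6 kinase Rps6kb1). The first 3 classes, 82 genes, are summed below as the ribosomal protein genes. The other 9 symbols had too few UMIs: Rps6ka6, Rps6kl1, Rpl3l, Rpl9-ps1 and Rpl36-ps4 had none, Rps6kc1 had 13 and 15, Rps6ka2 had 4 and 14, Rpl39l had 1 and 2, and Rpl10l had 1 and 0. The rule misses Fau, a fusion gene that also encodes a ribosomal protein, and Rack1, a scaffold bound to the small subunit. Both are given separately.

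Both groups were female C57BL/6J mice, and lymphocytes of the colonic lamina propria, the tissue layer under the gut epithelium, were sorted for B cells by flow cytometry. The day 0 group was untreated. Mice of the day 14 group drank 2% dextran sulfate sodium (DSS), which injures the colon lining, for 7 days and then recovered for 7 days. Both samples carry a DSS tag as treatment, so the untreated state of day 0 rests on the protocol text. There was 1 library per group, and no source used here says how many mice were pooled in it. No difference below therefore has a replicate check or a test, a difference between days cannot be told apart from a difference between libraries, and every 95% interval covers counting error only.

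The analysis covered 3290 cells at day 0 and 4692 at day 14, with 8690102 and 12317052 UMIs and a median of 2278 and 2242 UMIs per cell. At least 5 UMIs of the B cell markers Cd79a, Cd79b, Ms4a1 and Cd74 together were found in 99.9% of cells on both days. All 8 B cell markers were detected, with a summed level of 34310 and 32831 CPM (UMIs per 1000000 UMIs of the denominator defined below). Markers of other cells were low: 7.29 and 3.97 CPM over 8 T cell markers, 190.0 and 180.0 over 7 myeloid markers, 59.8 and 50.2 over 5 stromal and endothelial markers (Vwf at 0), and 13.3 and 13.1 over 6 epithelial markers (Krt20 at 0). The 4 neutrophil markers had no UMI at day 0, which allows up to 0.371 CPM (3 counts), and summed to 34.4 CPM at day 14. Mitochondrially encoded genes held 3.05% and 3.32% of UMIs, and 17 cell barcodes occurred in both libraries. The part of any of these in the values below was not tested.

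Each ribosome joins a small subunit, which reads the messenger RNA, and a large subunit, which forms the peptide bond and bears the exit tunnel for the new chain. Many vertebrate ribosomal protein transcripts begin with a run of pyrimidines, the 5′ terminal oligopyrimidine (TOP) tract, through which mTOR signalling and the protein LARP1 control their translation together. Resting B cells carry modest translation machinery, whereas plasma cells, the antibody-secreting end state, devote most of their messenger RNA to immunoglobulin.

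The start regions are shown for genes on which the results turn. Rplp0, Rps12 and Rpl10 were among the members with the highest day 14 to day 0 ratios, and Rpl13a and Rps27rt among those with the lowest. Rps27 is the parent of Rps27rt and the most abundant member, and Rps27l and Rpl36al stand apart in plasma-state cells. Each sequence holds the 60 bases before and the 25 from the annotated transcription start, 5′ to 3′ on the gene's strand, and capitals mark the longest unbroken run of C and T (in Rps27l the first of 2 runs of 9 bases). They come from RefSeq (GRCm38.p6), which covered 62 of the 82 genes. On the plus strand lie the windows of Rplp0 at chr5:115559407-115559491, Rpl10 at chrX:74270756-74270840 and Rps27l at chr9:66946026-66946110. On the minus strand lie those of Rps12 at chr10:23787185-23787269, Rpl13a at chr7:45128721-45128805, Rps27 at chr3:90213624-90213708, Rps27rt at chr9:114982715-114982799 and Rpl36al at chr12:69184043-69184127.
Rplp0: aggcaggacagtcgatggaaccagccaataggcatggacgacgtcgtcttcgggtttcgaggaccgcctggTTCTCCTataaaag
Rps12: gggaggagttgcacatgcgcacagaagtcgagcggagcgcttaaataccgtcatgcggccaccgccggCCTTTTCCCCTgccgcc
Rpl10: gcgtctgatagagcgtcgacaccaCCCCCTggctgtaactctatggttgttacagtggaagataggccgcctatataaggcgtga
Rpl13a: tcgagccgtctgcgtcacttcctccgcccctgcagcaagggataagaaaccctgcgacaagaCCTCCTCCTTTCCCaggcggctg
Rps27: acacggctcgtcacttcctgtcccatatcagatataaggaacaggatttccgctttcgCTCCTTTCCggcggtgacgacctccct
Rps27rt: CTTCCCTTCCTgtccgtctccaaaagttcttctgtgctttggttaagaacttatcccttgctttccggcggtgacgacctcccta
Rps27l: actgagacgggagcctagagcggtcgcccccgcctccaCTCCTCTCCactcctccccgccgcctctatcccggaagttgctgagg
Rpl36al: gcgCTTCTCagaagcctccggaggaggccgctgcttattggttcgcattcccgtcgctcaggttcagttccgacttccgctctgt

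Within the 100 bases centred on an annotated start, 51 of the 62 genes (82.3%) held a pyrimidine run of at least 8 bases on the sense strand, against 39.3% of all 27025 genes in the table. A run of at least 10 bases was found in 71.0%, against 20.6%. The short sense motif CTTTCC, which lies inside the run of Rps27 and of Rpl13a, occurred in 32.3%, against 5.43%. CCGGAA on either strand, the core that ETS-family factors bind, was present in 35.5% against 9.24%. AAGATGGC on either strand, the core letters of a YY1 site, was present in 6.45% against 1.68%. TATAAA on the sense strand occurred in 8.06% against 4.05%, and CCAAT on either strand in 12.9% against 15.6%. Long runs were found at both ends of the day comparison: Rpl13a held 14 bases in the window shown and Rps12 held 11, while the longest was 7 in Rplp0 and 6 in Rpl10. The windows shown were chosen partly by their day ratios, and the relation of run length to day ratio over the 62 genes was not tested. A match in these windows is a description of letters and not a measured start or binding site.

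Ribosomal protein transcripts took a larger share of the messenger RNA pool at day 14. They made up 35.8% of UMIs at day 0 (2893749 of 8091798, 95% exact Clopper-Pearson interval 35.73 to 35.79%). At day 14 they made up 39.1% (4535855 of 11596323, 39.09 to 39.14%). The denominator throughout leaves out immunoglobulin and mitochondrially encoded genes. The day 14 share was 3.35 percentage points above the day 0 share, a ratio of 1.094 (95% interval 1.092 to 1.095). Because the ribosomal protein genes fill so much of the denominator, all other genes together went the opposite way by construction, from 64.2% to 60.9% (ratio 0.948).

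Cell by cell, the 2 days overlapped broadly. The median share per cell was 35.8% at day 0 (quartiles 32.4 and 39.1%) and 38.4% at day 14 (34.6 and 42.1%), so the day 14 median lay inside the middle range of day 0. The standard deviation over cells was 5.26 and 5.72 percentage points, against 1.03 and 1.07 from counting alone. Cells of the same library therefore differed far beyond counting error. A cell's share also moved with its depth, with a Spearman correlation with its UMIs of 0.258 at day 0 and 0.398 at day 14, over 3290 and 4692 cells that share a library. With every cell thinned to 1000 UMIs of the denominator, and 36 and 77 shallower cells left out, the day ratio of the share was 1.078.

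Cells were next divided by their own immunoglobulin transcripts. Cells were placed in the plasma state where immunoglobulin genes gave at least 30% of all UMIs and 12 plasma cell markers (such as Jchain, Xbp1 and Mzb1) gave at least 5 UMIs. Class-switched cells had at least 3 UMIs of the Igha, Ighg and Ighe constant genes and more of them than of Ighm and Ighd. IgD-positive cells, the naive-type state, had at least 2 Ighd UMIs. These states are ranges along a count, not sharp types. There were 1506 and 2223 cells with 1 or 2 Ighd UMIs, 72 and 52 with 2 to 4 switched UMIs that outnumbered Ighm and Ighd, and 2 and 11 with plasma markers and 20 to 40% immunoglobulin. Free RNA can put UMIs of a gene into cells that do not express it. At least 2 Ighd UMIs were found in 29.8% and 31.7% of all cells, and in 0 of 24 and 0 of 21 plasma-state cells, which allows up to 12.5% and 14.3%. These counts concern Ighd only and do not measure free RNA of the switched genes. Class-switched cells held a median of 5 and 6 switched UMIs, and the part of free RNA in them was not tested. The plasma-state cells were deeper, with a median of 7509 and 7744 UMIs of the denominator against 2182 and 2140 over all cells.

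The share stood highest in IgD-positive cells and lowest in plasma-state cells on both days. In IgD-positive cells it was 36.5% at day 0 (976 cells) and 40.0% at day 14 (1486 cells), and the ratio was 1.094 (1.091 to 1.097). In class-switched cells it was 33.5% (104 cells) and 35.7% (78 cells), a ratio of 1.064 (1.056 to 1.072). In plasma-state cells it was 16.3% (24 cells) and 25.4% (21 cells), a ratio of 1.555 (1.531 to 1.578). In the remaining cells it was 36.2% (2186 cells) and 39.1% (3107 cells), a ratio of 1.080 (1.078 to 1.082). All 4 states thus had the higher share at day 14. The lead of IgD-positive over the remaining cells was small. With cells thinned to 1000 UMIs the shares were 35.9% and 35.8% at day 0, and 38.9% and 38.3% at day 14. The class-switched value rests on the denominator: with immunoglobulin and mitochondrial genes kept in it, the day ratio was 0.997.

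**Figure D1:**
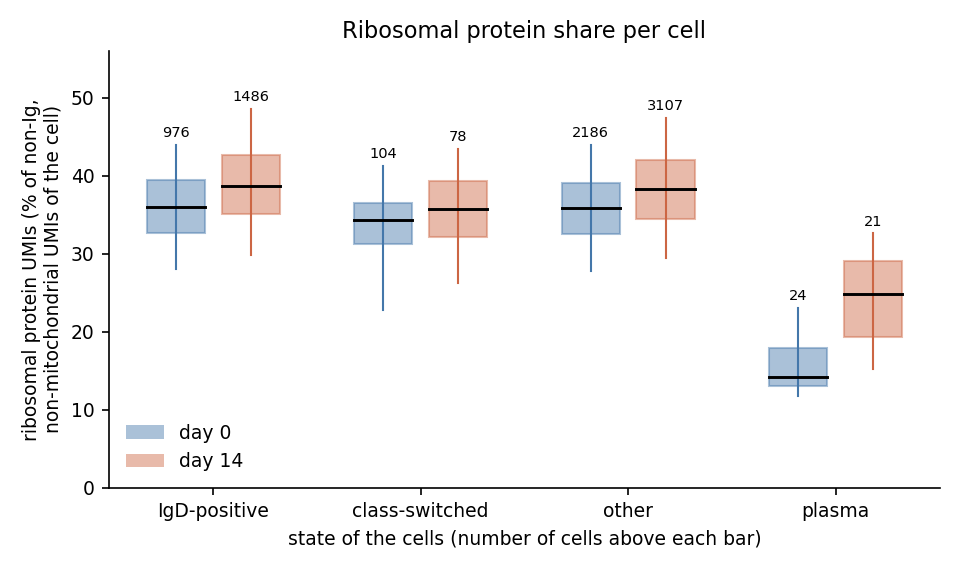
Ribosomal protein UMIs of a cell as a percentage of its UMIs outside immunoglobulin and mitochondrial genes (vertical axis), by state and day, 1 library per day. Boxes span the quartiles over cells, black lines are medians, thin lines run from the 5th to the 95th percentile, and numbers above are cells. The boxes of the 2 days overlap in the IgD-positive, class-switched and other cells, and the plasma-state boxes sit lowest, with medians of 14.2% at day 0 and 24.8% at day 14.

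Relative to IgD-positive cells of the same library, the share in class-switched cells was 0.917 of their level at day 0 (0.912 to 0.922) and 0.892 at day 14 (0.887 to 0.897). In plasma-state cells it was 0.447 (0.442 to 0.452) and 0.635 (0.629 to 0.641). Class-switched cells were also deeper, with a median of 3068 and 3460 UMIs in the denominator against 2314 and 2290 in IgD-positive cells. Most switched UMIs were Igha (89.3% and 84.4%), the IgA constant gene.

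The plasma-state cells of the 2 days differed in more than their ribosomal protein share. Immunoglobulin took a median of 57.2% of their UMIs at day 0 and 44.1% at day 14. Jchain, the joining chain of secreted IgA and IgM, alone took 17.6% and 11.1% of the denominator. With all 12 plasma markers removed from the denominator, the share was 20.1% and 29.3%. Among cells with at least 50% immunoglobulin the share was 14.9% (18 cells) and 19.5% (8 cells), and among those at 30 to 50% it was 20.5% (6 cells) and 28.1% (13 cells). The share was therefore higher at day 14 in both ranges, and the day 14 library held more of its cells in the lower immunoglobulin range. Immunoglobulin was not matched by day inside the ranges. Its median was 58.9% at day 0 and 63.9% at day 14 in the upper range, and 46.0% and 40.6% in the lower. The cycling genes Mki67, Top2a and Pclaf summed to 17.2 CPM at day 0 and 166 at day 14 in these cells. The B cell genes Ms4a1 and Pax5, which plasma cells lose, summed to 22.9 and 24.6, against 855 and 873 in IgD-positive cells. In plasma-state cells both sums rest on few UMIs, out of 174848 and 162544 of the denominator in 24 and 21 cells. How these UMIs were spread over the cells was not tested. Igha made up 95.3% and 73.7% of heavy chain constant UMIs. The part of each of these in the share was not tested. Per cell, the median number of ribosomal protein UMIs was 1144 and 2261 in plasma-state cells, above the 828 and 889 of IgD-positive cells. Their low share thus stood beside a higher absolute count.

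Gene by gene, nearly all ribosomal protein genes were higher at day 14 by a small amount. Of the 82 genes, 79 had a ratio above 1, 76 with an interval wholly above 1 and 2 wholly below it. The median ratio was 1.09 (quartiles 1.07 and 1.12). Of the 8828 genes tested outside the symbol rule, 2861 had a ratio above 1, with a median of 0.938. The 41 of those that were at least as abundant as the least abundant subunit gene had 11 above 1, and their summed ratio was 0.937. Large subunit genes summed to a ratio of 1.099 (45 of 46 above 1) and small subunit genes to 1.097 (31 of 31 above 1). The 7 kinase and binding protein genes summed to 0.977 (0.912 to 1.048), with 3 above 1. Rps6kb1, the main S6 kinase, had 61.8 and 60.4 CPM, and Rps6ka4 the lowest ratio among them, 0.728 (0.476 to 1.12), on 46 and 48 UMIs.

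The differences were small in size. At least 1.2-fold higher at day 14 were 1 of the 82 genes and 6.59% of the 8924 genes tested. At least 1.2-fold lower were 1 of 82 and 22.6% of all genes. At least 1.5-fold higher were 0 of 82 against 1.31%, and at least 1.5-fold lower were 0 of 82 against 4.94%. The number past 1.2-fold depends on the scaling, since the median gene of all tested stood at -0.09 on the log2 scale: with TMM factors 17 of the 82 genes passed 1.2-fold higher, as did 1028 of the 8924. When the ribosomal protein UMIs alone were the denominator, 38 of the 82 genes lay above 1, and none passed 1.2-fold higher.

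**Figure D2:**
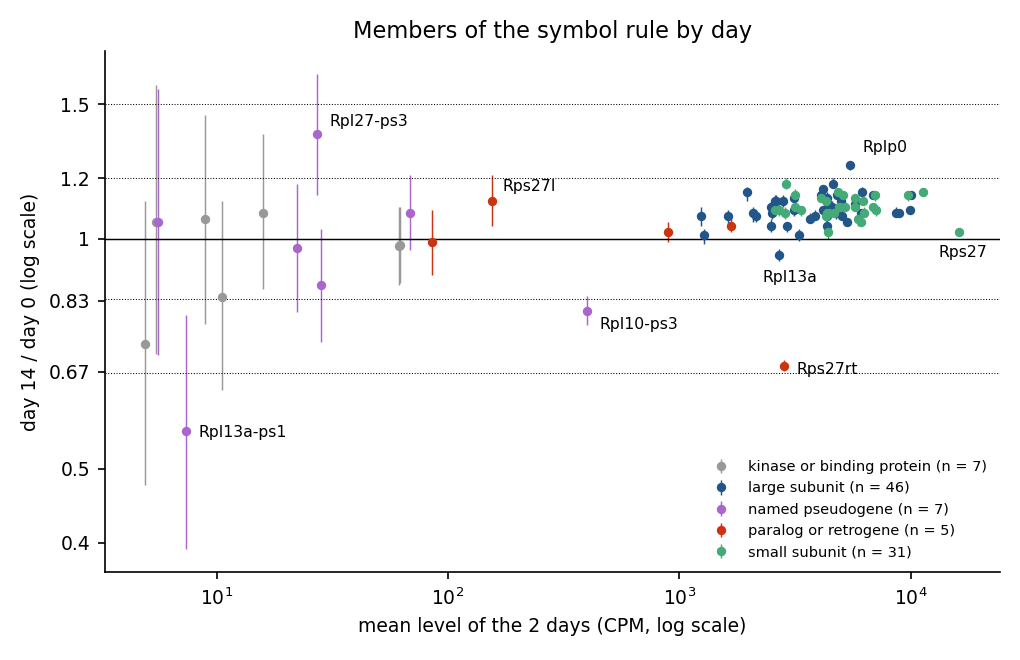
Day 14 over day 0 ratio (vertical, log scale) against mean level in CPM (horizontal, log scale) for the 96 members, with 95% counting intervals as bars, a solid line at a ratio of 1 and dotted lines at 1.2-fold and 1.5-fold in each direction. The large and small subunit genes form a band around 1.09, with Rplp0 at its top (1.25), while Rps27rt (0.682) and Rpl10-ps3 (0.805) lie below it.

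In the large subunit, the stalk that recruits translation factors held the genes with the highest ratios, Rplp0 and Rplp1. Rplp0, its base, had 4885 CPM at day 0 and 6098 at day 14 (1.25, 1.23 to 1.26). Its partner Rplp1 had 4244 and 5022 (1.18, 1.17 to 1.2), and Rplp2 had 4484 and 5113 (1.14, 1.13 to 1.16). Rpl12, which sits at the foot of the stalk, had 2422 and 2605 (1.08, 1.06 to 1.10). The 4 stalk genes summed to a ratio of 1.175 (1.167 to 1.183), above the sum of the large subunit. Rplp0 was higher at day 14 in each state, with ratios of 1.27 in IgD-positive, 1.24 in class-switched, 1.22 in other and 1.69 in plasma-state cells.

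Elsewhere in the large subunit, the 10 proteins around the exit tunnel summed to 1.092 (1.087 to 1.096), all above 1, from Rpl4 with 3291 and 3324 CPM (1.01, 0.994 to 1.03) to Rpl39 with 5703 and 6569 (1.15, 1.14 to 1.17). Rpl10, which sits near the peptidyl transferase centre, had 3873 and 4487 (1.16, 1.14 to 1.17). Rpl5 and Rpl11, which travel with the smallest ribosomal RNA and can bind Mdm2, had 1275 and 1285 (1.01, 0.983 to 1.03) and 3715 and 3984 (1.07, 1.06 to 1.09). Rpl13a, known in myeloid cells as part of an interferon-induced translation silencing complex, was the large subunit gene below 1, with 2766 and 2630 (0.951, 0.935 to 0.968). Its direction depends on the scaling: the ratio was 1.009 with TMM factors and 1.012 with median-of-ratios factors.

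Among small subunit genes Rps12 had the highest ratio, with 2652 and 3141 CPM (1.18, 1.16 to 1.2), and Rps29, the second most abundant, had 10476 and 12039 (1.15, 1.14 to 1.16). The 5 proteins listed for the messenger RNA entry and exit sites, Rps2, Rps3, Rps26, Rps28 and Rpsa, summed to 1.105 (1.098 to 1.112), with Rpsa at 2956 and 3365 (1.14) and Rps28 at 6038 and 6546 (1.08). Rps27 had the most UMIs of any member, with 16005 and 16394 CPM (1.02, 1.02 to 1.03), which put it near the bottom of the small subunit. It was followed by Rps29, Rpl13 (9394 and 10720), Rpl41 (9498 and 10317) and Rps19 (9117 and 10351). A 3′ UMI stands for a transcript whatever its length, but capture can differ between genes, so this order is one of counts. The most and least abundant of the 77 subunit genes differed 13.4-fold at day 0 and 12.9-fold at day 14, and the order of their levels was nearly the same on both days (Spearman correlation 0.990 across these genes).

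Among the members below the band were Rps27rt and Rpl10-ps3, both near-identical copies of another member. Rps27rt, an intron-less retrogene of Rps27, had 3356 CPM at day 0 and 2289 at day 14. Its ratio of 0.682 (0.671 to 0.694) was the lowest of the 82 genes, and by state it was 0.672 in IgD-positive, 0.619 in class-switched, 0.679 in other and 0.700 in plasma-state cells. Its part of the Rps27 and Rps27rt UMIs went from 17.3% (17.1 to 17.5) to 12.3% (12.1 to 12.4). The summed pair had a ratio of 0.965 (0.959 to 0.971), the reverse direction of Rps27 alone. Rpl10-ps3 is a pseudogene of Rpl10 by its symbol, although the annotation used types it as protein-coding. It had 442 and 356 CPM (0.805, 0.770 to 0.842), and its part of the pair went from 10.2% to 7.35% while Rpl10 itself was higher.

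The annotated transcripts show how little separates these copies from their parents. Over 341 aligned bases Rps27rt was identical to an annotated Rps27 transcript at all 341, and 32 of the 33 bases after that stretch are A. Rpl10-ps3 matched Rpl10 at 740 of 740 aligned bases, and all 28 bases that follow are A. In Rpl9-ps6, 691 of 692 bases matched Rpl9, and all 19 that follow are A; its part of the pair was 0.703% (0.618 to 0.797) and 0.591% (0.526 to 0.660). In these 3 copies the stretch that the parent transcript lacks is thus an A-run at the 3′ end, where the 3′ kit reads. Which UMIs belong to copy or parent is uncertain, and whether the day difference in Rps27rt and Rpl10-ps3 lies in the genes or in how reads ending in A were placed was not tested.

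The other named pseudogenes had few UMIs. Rpl27-ps3 matched Rpl27 at all 411 bases and had 186 and 364 UMIs (1.37, 1.14 to 1.64), the highest ratio of the 96 members. Rpl13a-ps1 had 76 and 61 UMIs (0.560, 0.393 to 0.795) and was the only member past 1.5-fold. Rps12-ps3 (494 of 494 bases identical) had 183 and 255 UMIs (0.972, 0.801 to 1.18), Rpl36a-ps1 had 534 and 826 (1.08, 0.967 to 1.21), and Rpl7a-ps5 had 44 and 66 (1.05, 0.704 to 1.57).

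Between states, class-switched cells differed from IgD-positive cells by a small amount at most genes. The median ratio of the 82 genes, class-switched over IgD-positive, was 0.928 at day 0 and 0.884 at day 14, against 1.04 and 1.02 over all genes tested. At day 0, 1 of 82 genes was at least 1.2-fold higher (34.8% of all genes) and 7 were at least 1.2-fold lower (27.3%). At day 14 these were 2 (35.9%) and 19 (30.9%). At 1.5-fold the counts were 1 higher (15.9% of all genes) and 0 lower (13.2%) at day 0, and 2 higher (19.9%) and 0 lower (16.9%) at day 14. Every one of these shares was under that of all genes, many of which rest on few UMIs in the class-switched cells. With at least 10 switched UMIs required, 35 of the 82 genes were at least 1.2-fold lower at day 0 (34.0% of all genes). Over all UMIs 46 were at day 14 (37.3%). In both of these cases the members' share lay above that of all genes, but not on the other day of each setting. With at least 10 switched UMIs, 33 of the 82 were lower at day 14 (39.8%), about the share of all genes. Over all UMIs, 8 of the 82 were lower at day 0, a smaller share than that of all genes.

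The gene that stood out was Rps27l, a paralog of Rps27 that is a p53 target. It had 136 CPM in IgD-positive and 256 in class-switched cells at day 0 (1.88, 1.5 to 2.34). At day 14 it had 139 and 528 (3.79, 3.2 to 4.47). Rpl36al, the retrogene of Rpl36a, had 868 and 922 (1.06, 0.95 to 1.18) at day 0 and 843 and 1410 (1.67, 1.52 to 1.83) at day 14. The day 14 class-switched group held cells near the plasma limit. With a 20% immunoglobulin limit its 78 cells became 72, and plasma-state cells went from 21 to 27. At day 0 the counts stayed at 104 and 24. The part of such cells in the day 14 class-switched values was not tested. Rpl28 had ratios of 1.16 and 1.12 and Rpl7a of 1.08 and 1.11. Of the genes among the 82 whose interval lay below 1, Rps27rt (0.778 and 0.717) and Rps24 (0.783 and 0.751) were lowest in class-switched cells on both days. Rpl7l1 (0.748 and 0.775, on 29 and 25 UMIs) had intervals that spanned 1 on both days. The pseudogenes Rpl27-ps3 (0.627 and 0.418) and Rps12-ps3 (1.34 and 1.45) had intervals that reached or spanned 1.

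In plasma-state cells the group was low almost throughout. The median ratio to IgD-positive cells was 0.427 at day 0 and 0.612 at day 14, against 0.787 and 0.887 over all genes tested. At day 0, 77 of 82 genes were at least 1.2-fold lower (53.1% of all genes) and 75 at least 1.5-fold lower (41.5%). At day 14, 70 were at least 1.2-fold lower (47.0%) and 51 at least 1.5-fold lower (36.1%). At least 1.2-fold higher were 2 genes at day 0 (30.2% of all genes) and 4 at day 14 (34.4%), and at least 1.5-fold higher were 2 (21.9%) and 3 (24.1%).

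The 2 genes at least 1.2-fold higher in the plasma state on both days were paralogs. Rps27l had 618 CPM at day 0, 4.53 times its IgD-positive level (3.62 to 5.64), and 1206 at day 14, 8.65 times that level (7.31 to 10.2). Rpl36al had 2042 and 2578 against 868 and 843, ratios of 2.35 (2.10 to 2.63) and 3.06 (2.76 to 3.39). Their parents went the other way: Rps27 stood at 0.221 (0.204 to 0.239) and 0.265 (0.246 to 0.286) of its IgD-positive level, and Rpl36a at 0.364 (0.314 to 0.419) and 0.5 (0.442 to 0.563). As a result Rps27l made up 14.9% (12.3 to 17.7) and 21.9% (19.2 to 24.7) of the Rps27l and Rps27 UMIs in plasma-state cells, against 0.844% and 0.850% in IgD-positive cells. Rpl36al made up 64.6% (60.4 to 68.5) and 60.1% (56.4 to 63.8) of its pair, against 22.0% and 19.8%. These paralogs differ from their parents in sequence, with 79.4% identity over the aligned bases for Rps27l and 85.6% for Rpl36al, far less than Rps27rt.

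**Figure D3:**
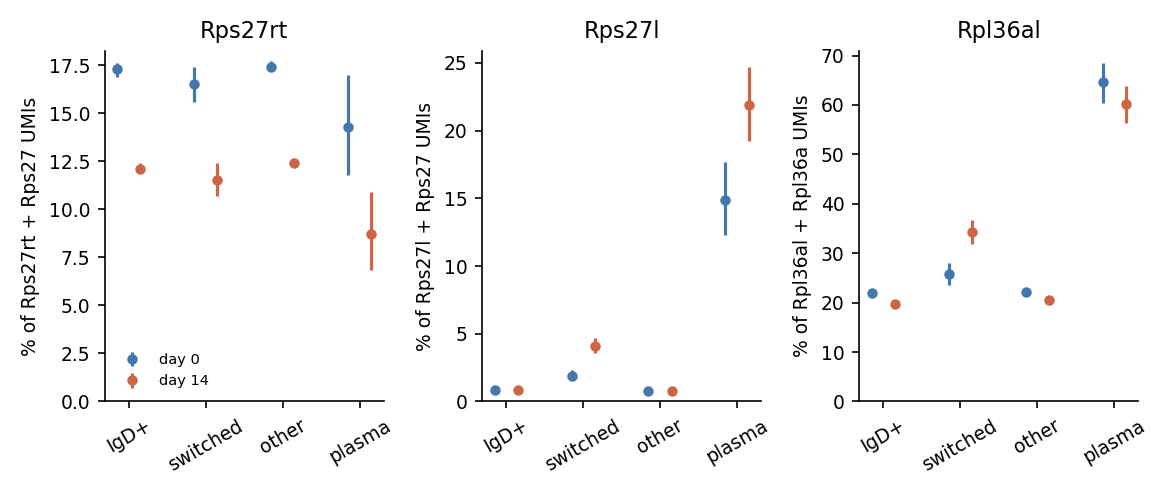
Part of a paralog in the summed UMIs of itself and its parent gene, in percent (vertical axis), by cell state and day, with exact 95% Clopper-Pearson intervals as bars. Rps27rt is lower at day 14 in every state, while Rps27l and Rpl36al are highest in plasma-state cells on both days (Rps27l at 14.9% and 21.9%, Rpl36al at 64.6% and 60.1%).

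Other paralog pairs showed no such shift. Rpl22l1 made up 51.8% (45 to 58.6) and 53.4% (48.0 to 58.7) of the Rpl22l1 and Rpl22 UMIs in plasma-state cells and 50.6% and 51.0% in IgD-positive cells. Rpl7l1 made up 2.55% (0.833 to 5.85) and 2.48% (1.08 to 4.84), on 5 and 8 UMIs, against 3.53% and 3.24%. By day, Rpl22l1 had 1643 and 1713 CPM (1.04, 1.02 to 1.07) beside Rpl22 with 1565 and 1671 (1.07, 1.04 to 1.09).

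Among subunit genes, Rpl41 and Rpl10 kept the highest ratios in plasma-state cells. Rpl41, which encodes the smallest ribosomal protein, had 9575 CPM in IgD-positive and 9980 in plasma-state cells at day 0 (1.04, 0.992 to 1.09), and 10463 and 14556 at day 14 (1.39, 1.33 to 1.45). Rpl10 had ratios of 0.974 (0.899 to 1.05) and 1.58 (1.49 to 1.68). At the other end were Rps27rt (0.176 and 0.184, on 103 and 67 UMIs), Rps27 and Rps15a (0.285 and 0.402). With the ribosomal protein UMIs as the denominator, so that only the make-up of the group is compared, 19 genes were at least 1.2-fold higher in plasma-state cells (68.7% of all genes tested on that denominator) and 24 lower (18.4%) at day 0. At day 14 these were 19 (57.8%) and 23 (27.2%).

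**Figure D4:**
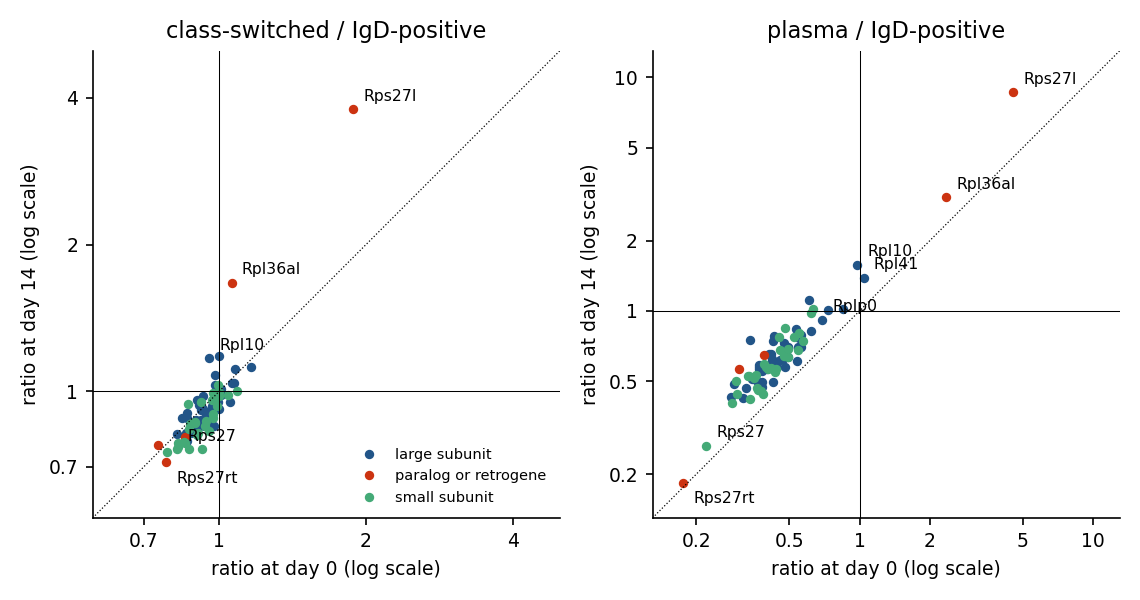
Ratio of each of the 82 genes to its level in IgD-positive cells of the same library, at day 0 (horizontal) and day 14 (vertical), both on log scales, for class-switched cells (left) and plasma-state cells (right). The dotted line marks equal ratios and the solid lines a ratio of 1. Rps27l lies at the upper right in both panels (1.88 and 3.79, 4.53 and 8.65), and most plasma-state points lie below 1 on both axes and above the dotted line.

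The day comparison was also made gene by gene within each state. In IgD-positive cells 78 of 82 genes had a day 14 to day 0 ratio above 1 (median 1.09), in class-switched cells 67 of 82 (median 1.04), in other cells 78 of 82 (median 1.08) and in plasma-state cells 80 of the 81 tested (median 1.57). In the plasma state Rpl13a had the highest ratio, from 944 to 1969 CPM (2.09, 1.72 to 2.53), and Rps27rt the lowest. Rps27l had a ratio of 1.02 (0.892 to 1.17) in IgD-positive cells, 2.06 (1.62 to 2.64) in class-switched and 1.95 (1.54 to 2.49) in plasma-state cells. The class-switched ratio includes the day 14 cells near the plasma limit given above.

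Among IgD-positive cells, the state in which this was measured, the median gene varied little beyond counting error at the depth used. When each cell was thinned to 300 ribosomal protein UMIs, the variance of a gene over cells had a median of 1.05 times the multinomial value at day 0 and 1.04 at day 14, where 1 is counting error alone. Rps27 had the highest value, 1.77 and 1.68, around a mean of 14.0 and 13.1 UMIs. Next were Rps2 (1.21 and 1.33), Rps19 (1.28 and 1.14), Rpl41 (1.26 on both days), Rpl22l1 (1.26 and 1.2) and Rps15a (1.16 and 1.23). The same relative spread gives a larger value in a gene with more UMIs, so these values do not rank genes by variability. Rpl22l1 reached its values at a mean of 1.41 and 1.36 UMIs. A value near 1 can hide variation in genes with few UMIs.

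Of the 1049 genes outside the rule found in at least 20% of cells of both libraries, those that followed the share most closely across cells included Eef1a1, Fau, Eef1g, Rack1 and Gm11808. Spearman correlations at day 0 and day 14 were 0.530 and 0.582 for Eef1a1, the main elongation factor, 0.511 and 0.494 for Fau, 0.324 and 0.349 for Eef1g, 0.294 and 0.333 for Rack1, and 0.292 for Gm11808 on both days. Lowest were Klf2, a quiescence and trafficking factor (-0.173 and -0.209), followed by Ier2, Emp3, Jund, H3f3b and Ezr. Over the fixed lists, the median correlation was 0.262 and 0.298 for 6 elongation factors and 0.171 and 0.205 for 10 other TOP transcripts. It was -0.00962 and -0.00466 for 20 initiation factors and 0.0164 and 0.0284 for 8 assembly genes, against -0.00203 and 0.00822 over all 1049 genes. All cells of a day share a library, and depth moves with the share as given above.

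Fau and Rack1, outside the symbol rule, lay below the members' median ratio of 1.09. Fau had 7786 CPM at day 0 and 7855 at day 14 (1.01, 0.999 to 1.02), and Rack1 had 1092 and 1172 (1.07, 1.04 to 1.10).

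The summed ratios of other translation genes lay closer to 1 than those of the ribosomal protein genes. The 9 elongation factors tested summed to a ratio of 1.020 (1.010 to 1.029), 6 above 1, with Eef1a1 at 5082 and 5236 CPM (1.03), Eef1b2 at 1.10 and Eef2, which moves the ribosome along, at 1639 and 1503 (0.917). The 31 initiation factors summed to 0.95 (0.942 to 0.959), 15 above 1, with Eif1 at 3860 and 3244 (0.840) and Eif4a2 at 457 and 375 (0.821). The 11 other known TOP transcripts summed to 1.028 (1.019 to 1.038), from Vim at 0.746 to Eif3h at 1.14. The 16 growth and TOP regulators summed to 0.944 (0.913 to 0.977), and Rptor, an mTOR complex subunit, had 74 and 70 UMIs (0.660, 0.469 to 0.928).

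The 27 genes of ribosome assembly summed to 1.034 (1.019 to 1.049) with a median ratio of 1.02, 16 above 1, with Npm1, a nucleolar chaperone, at 923 and 1020 CPM (1.10, 1.07 to 1.14). The 77 mitochondrial ribosomal protein genes tested, which belong to a separate ribosome, summed to 1.001 (0.987 to 1.014) with 29 above 1. Their most abundant member Mrpl52 had 198 and 273 CPM (1.38, 1.30 to 1.46).

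**Figure D5:**
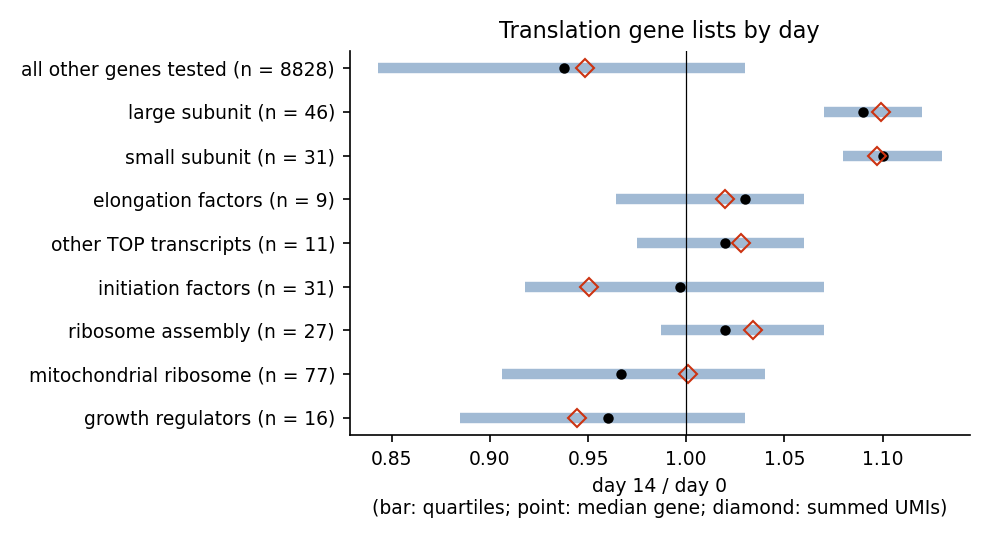
Day 14 over day 0 ratio (horizontal axis) for ribosomal protein genes and other gene lists, with the number of genes tested: bars span the quartiles over genes, points mark the median gene and diamonds the summed UMIs, with 1 library per day. Both subunits lie near 1.09 to 1.10, the elongation, TOP and assembly lists just above 1, and all other genes at 0.938.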

How the data were processed

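Single cells were sequenced with the 10x Chromium 3′ kit, version 2, per the labels' protocols, in 1 library at day 0 and 1 at day 14. The deposited matrices hold raw UMI counts. Cell Ranger 3.0.1 made them, per the file headers, and the submitters' processing notes name mm10 and Seurat 3.0. The sources used here do not give the cell calling, aligner settings or annotation. Natural log tables, also deposited, hold ln(1 + UMIs × 10000 / total UMIs of the cell): all 315840 and 450432 member values matched the counts (relative tolerance 0.001). These tables set the cells used, 3290 of 3376 and 4692 of 4780 barcodes, by a filter that is not stated.

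Members, lists and cell states were chosen with earlier results of these data known. Counts were summed per library or state and divided by UMIs outside immunoglobulin and mitochondrial genes. Genes with at least 50 UMIs in the 2 groups compared were compared by size of ratio (1.2-fold and 1.5-fold), with exact conditional intervals for ratios and exact Clopper-Pearson intervals for shares, at 95% (SciPy 1.17.1). These cover counting error only, and there was no statistical test. Ratios were tested on simulated data. The named genes are 6 members from each end of the day ratio, ranked by the interval bound nearer 1, the 5 with most UMIs, those past 1.5-fold, paralogs with their parents, and the 4 highest and 4 lowest in each state. Of each list up to 4 genes and the most abundant were taken, and the 6 genes at each end of the correlation across cells. Rpl5, Rps6kb1, Rps6ka4 and the remaining pseudogenes were named besides this rule, after their values were seen. Some genes that the rule names are not reported here. Doublets were not removed. Cells above 2 times the median UMIs were left out in an alternative. Alternatives also covered TMM (edgeR 4.0.16) and median-of-ratios scaling, denominators, the UMI filter, thinning and the state limits. All 105 symbols were found in GENCODE M21, whose transcripts gave the copy alignments.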

Additional observations from a re-analysis of the deposited data

Results flagged for a closer look

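Barcodes that the deposited log-normalized tables leave out were used in no comparison above, and ribosomal protein UMIs were present there too. In the 86 such barcodes of day 0 the share was 35% (34.85 to 35.17), with a median per barcode of 42.0% and quartiles of 28.3 and 47.4%. In the 88 of day 14 it was 29.5% (29.31 to 29.61), with a median of 36.7% and quartiles of 18.6 and 47.6%. Mitochondrial genes held 6.23% and 11.4% of their UMIs, against 3.05% and 3.32% in the cells analysed. The part of the mitochondrial share in these values was not tested.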

How the results depend on the processing

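The day ratio of the ribosomal protein share (1.094) stayed above 1 under every alternative run. It was 1.106 over all UMIs, 1.109 with immunoglobulin kept, 1.087 with all barcodes, 1.075 without cells above 2 times the median UMIs, 1.078 after thinning and 1.087 with states weighted equally. With choices made after seeing the data it was 1.086 without plasma-state cells, 1.098 without Rps27rt and 1.090 with Malat1 out of the denominator. Of the 82 genes, those at least 1.2-fold higher at day 14 (1, and 6.59% of all genes) numbered 17 with TMM (11.5% of all genes), 18 with median-of-ratios (11.8%), 14 with ribosomal protein UMIs out of the denominator (10.9%), 0 with them alone as the denominator (3.46%) and 3 of 84 with no filter on low counts (15.2%). At 1.5-fold 1 was lower with ribosomal protein UMIs as the denominator (8.82%), and 1 was higher with no filter (8.94%).

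The class-switched to IgD-positive ratio of the share was 0.912 at day 0 and 0.881 at day 14 with at least 3 Ighd UMIs, and 0.897 at day 14 with at least 1. With at least 10 switched UMIs, which left 21 and 22 class-switched cells, it was 0.849 and 0.872. It was 0.882 and 0.852 with a 50% immunoglobulin limit for the plasma state, and 0.916 at day 14 with a 20% limit. It was 0.908 and 0.828 over all UMIs and 0.929 and 0.924 after thinning. The plasma-state to IgD-positive ratio was 0.408 and 0.487 with the 50% limit, 0.195 and 0.319 over all UMIs, and at day 14 it was 0.627 with at least 3 Ighd UMIs, 0.673 with the 20% limit and 0.617 after thinning.

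The day ratios within states were also varied after seeing the data. In IgD-positive cells the ratio was 1.083 after thinning, 1.089 with at least 1 Ighd UMI and 1.101 with at least 3. In class-switched cells it turned to 0.997 over all UMIs, and was 1.077 after thinning and 1.125 with at least 10 switched UMIs. In plasma-state cells it was 1.792 over all UMIs, 1.496 after thinning, 1.647 with the 20% limit, 1.306 with the 50% limit and 1.455 without plasma markers in the denominator.

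Counts of genes moved more. The share of all genes under the same setting stands in brackets. Class-switched against IgD-positive, at day 0, 2 genes were 1.2-fold higher (44.3%) and 1 lower (20.3%) with ribosomal protein UMIs as the denominator, and 4 (42.9%) and 35 (34.0%) with at least 10 switched UMIs, 5 of them 1.5-fold lower (23.0%). At day 14 these were 7 (45.8%) and 1 (23.2%), and 6 (36.9%) and 33 (39.8%) with 2 past 1.5-fold lower (27.3%). Over all UMIs 46 were 1.2-fold lower (37.3%) and 1 was 1.5-fold lower (20.9%). Plasma-state against IgD-positive, over all UMIs 1 gene was 1.2-fold (8.22%) and 1 was 1.5-fold higher (5.98%) at day 0, and at day 14 2 were 1.2-fold higher (11.6%) and 78 were 1.5-fold lower (70.2%). With ribosomal protein UMIs as the denominator, 19 were 1.2-fold higher (68.7%) and 24 lower (18.4%) at day 0, with 7 (58.4%) and 6 (14.2%) at 1.5-fold. At day 14 they were 19 (57.8%) and 23 (27.2%), with 9 (46.1%) and 4 (19.5%) at 1.5-fold. The cause of these shifts was not tested. No paired analysis was possible because each group holds 1 library, and no replicate could be left out.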
